A study of Mus musculus with 19 samples.

Results

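The 9 genes described here encode the hemidesmosome and the laminin it binds in the basement membrane, with the integrin pair that binds the same laminin outside hemidesmosomes. They are Itga6, Itgb4, Col17a1, Dst and Plec for the hemidesmosome, Itga3 and Itgb1 for the other integrin pair, and Lama3 and Lamb3 for laminin. The genes were listed by name and not by a measured value, with earlier results of these data known. All 9 were among the 24689 gene symbols of the deposited table of TPM, a transcript level scaled by gene length and to the same total in each library. All 9 also passed the filter on low values, at least 0.1 TPM in at least 3 mice, which 22745 genes passed.

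Polyadenylated RNA from whole tongue epithelium of 19 mice was sequenced at day 15 after transgenes were switched on. For its transgenic experiments in general, the study states that mice were littermates aged 8 to 16 weeks, balanced for age and sex. Tamoxifen injected into the tongue activated CreERT under the keratin 14 promoter, which is active in basal keratinocytes, and the Cre opened LSL-rtTA so that a doxycycline diet could drive tetON transgenes. The comparisons ask what the human papillomavirus oncogenes E6-E7 and an active YAP, a transcriptional coactivator, do alone and together.

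The 5 mice of group E carried Krt14-CreERT, LSL-rtTA and tetON_E6-E7. The 3 mice of group Y carried Krt14-CreERT, LSL-rtTA and tetON_YAP1S127A, a YAP1 form that escapes inhibitory phosphorylation. The 6 mice of group EY carried Krt14-CreERT, LSL-rtTA and both tetON transgenes. Group N, the 5 controls, was not of 1 genotype. N mice 1 to 3 carried Krt14-CreERT and LSL-rtTA, N mouse 4 carried LSL-rtTA without Cre, and N mouse 5 carried Krt14-CreERT with both tetON transgenes but without rtTA. A tetON_H2B-GFP reporter was also part of the mouse model. Whole epithelium was used, so cells without active transgenes were included.

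Read numbers recovered from the TPM steps ran from 8269674 to 11007304 per mouse. The median mouse had 9637779 reads in N and 9448942 reads in EY, with 8848776 in E and 8679053 in Y. Among the 9 genes, the fewest reads in a mouse were 389, for Itga3 in N.

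Keratins of tongue epithelium were abundant in these libraries. Krt14 and Krt5, the keratin pair of basal cells, had mean levels of 6048 and 3061 TPM in N, and Krt13, a keratin of the layers above, had 71112 TPM. Some libraries stood apart from their group in markers of other cells. The summed level of 16 skeletal muscle genes, most abundant Acta1, was 1694 TPM in EY mouse 3 against 76.7 to 343.8 TPM in the other EY mice. It was 342.5 TPM in N mouse 2 against 25.8 to 93.6 TPM in the other N mice, and 195.3 TPM in E mouse 5 against 29.7 to 59.1 TPM in the other E mice. The summed level of 8 leukocyte genes, most abundant Lyz2, was 699.1 TPM in N mouse 1 against 88.7 to 241.8 TPM in the other N mice. Y, with 3 mice, was not tested for mice that stand apart, and Y mouse 2 had 243.1 TPM of the muscle genes against 32.1 and 56.8 TPM in the others. Fits were repeated without the first 4 of these mice, with N mice 1 to 3 as the controls, and without each mouse in turn. Leaving out the first 4 keeps N mice 3 to 5 as the controls. It therefore also moves the controls toward N mice 4 and 5, which differ in genotype.

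**Figure D1:**
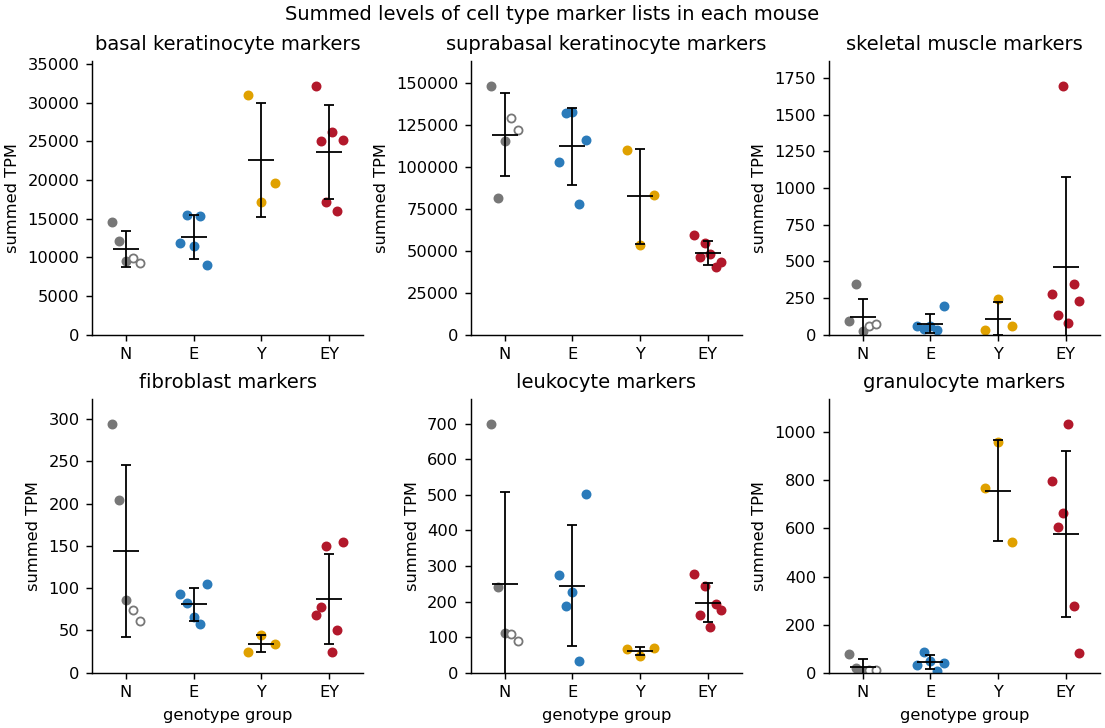
Summed TPM of marker genes of 6 cell types in each mouse (points) by genotype group, with the group mean (long line) and SD (bars). Open circles are N mice 4 and 5, whose genotypes differ from those of N mice 1 to 3. EY mouse 3 stands at 1694 TPM for the skeletal muscle genes.

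Hemidesmosomes hold basal keratinocytes to the basement membrane. Integrin α6β4 and collagen XVII cross the plasma membrane, plectin and the epithelial form of dystonin tie them to keratin filaments inside the cell, and laminin-332 is their ligand outside. In oral mucosa and skin, inherited loss of these proteins causes blistering, and integrin α3β1 binds the same laminin at focal contacts, which are tied to actin.

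In N, Col17a1 had the highest mean TPM of the 9 genes and Lama3 the lowest. The order of mean TPM in N was Col17a1, Itgb4, Plec, Itgb1, Itga6, Dst, Itga3, Lamb3 and Lama3. Most neighbours in that order overlapped between mice. The exceptions were Itgb1 over Itga6, whose nearest values were 15.7 and 15.5 TPM, and Itga3 over Lamb3, whose nearest values were 6.69 and 4.02 TPM. Over all 19 mice the mean level ran from 2.43 TPM for Lama3 to 56.2 TPM for Col17a1. The gene lengths behind TPM are not given in the sources used here, so this order need not be that of transcript numbers. The fewest reads were for Itga3, which is not last in the order. A gene-level TPM adds up all transcripts of a gene, and Dst, Plec and Lama3 also have transcripts that do not make the hemidesmosome or laminin-332 form.

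When both transgenes were on (EY against N), 4 of the 9 genes changed at an adjusted p below 0.01, all p-values being adjusted over the 22745 genes. Itgb1, Itga3 and Itga6 rose and Col17a1 fell. Among all genes, 23.9% rose and 7.97% fell at that threshold. Itgb1 and Itga3 were also differentially expressed genes (DEG), with an absolute log2 fold change above 1, as were 18.3% of all genes. All genes together were shifted upward: their median log2 fold change in EY against N was 0.33, and 0.01 after median-of-ratios scaling, which sets the typical gene of each mouse to the same level. After that scaling 13.5% of genes rose and 13.8% fell, and of the 9 genes Itgb1 and Itga3 rose and Col17a1 fell, while Itga6 no longer passed. The p-values measure the spread between mice, each mouse being 1 library. Where groups are said not to overlap, the levels are described, and the share of all genes that separate in the same way is not given. In RNA from whole epithelium, more or fewer cells of a type cannot be told apart from more or less RNA per cell.

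**Figure D2:**
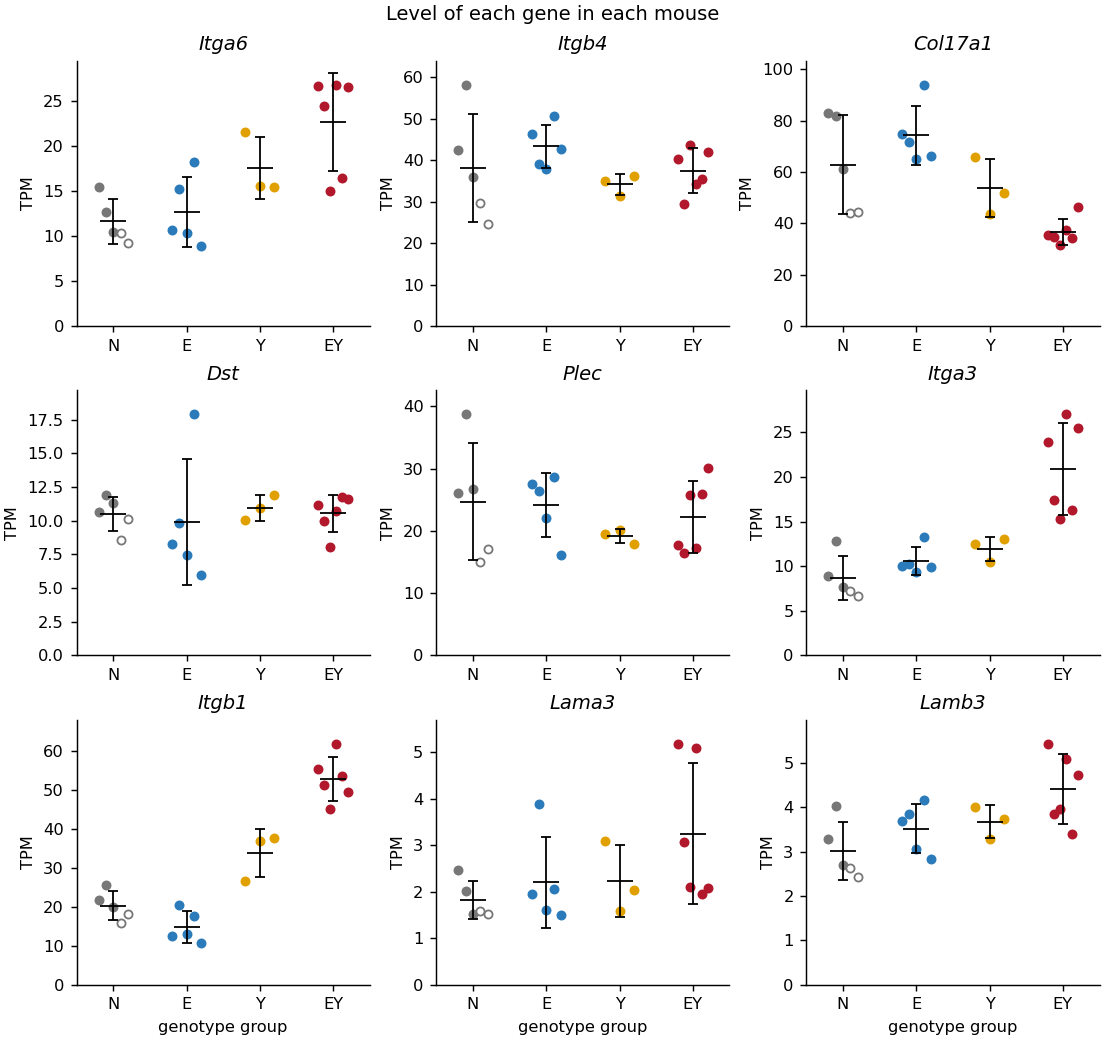
Level in TPM of each of the 9 genes in each mouse (points) by genotype group, with the group mean (long line) and SD (bars), on axes that start at 0. Open circles are N mice 4 and 5. The EY mice lie above all N mice for Itgb1 and Itga3, and at the low end for Col17a1.

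Itga6 encodes the α6 subunit, which pairs with β4 in the hemidesmosome. In N mice 1 to 5 its level was 15.5, 12.7, 10.5, 10.3 and 9.21 TPM, in E mice 1 to 5 it was 10.6, 15.3, 10.4, 18.3 and 8.89 TPM, and in Y mice 1 to 3 it was 21.6, 15.6 and 15.5 TPM. In EY the lowest, median and highest levels were 15.03, 25.5 and 26.8 TPM. EY mouse 3 lay just below the highest N mouse and the other 5 EY mice lay above it, while the Y mice lay at or above it. In EY against N its log2 fold change was 0.94 (SE 0.21, n = 6 and 5, adjusted p = 0.00147). After scaling it was 0.57 (adjusted p = 0.0344), with voom 0.57 (adjusted p = 0.0177), and with N mice 1 to 3 as the controls it also missed 0.01.

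Itgb4 encodes the β4 subunit, whose long tail inside the cell binds plectin. Its level was 42.5, 58.0, 36.0, 29.7 and 24.5 TPM in N mice 1 to 5 and 46.4, 39.0, 37.9, 50.5 and 42.7 TPM in E mice 1 to 5. It was 35.0, 31.3 and 36.2 TPM in Y mice 1 to 3, and in EY the lowest, median and highest were 29.4, 37.8 and 43.7 TPM. N overlapped each other group and held both the highest and the lowest mouse, N mice 2 and 5, while every Y mouse lay below every E mouse. The log2 fold change in EY against N was 0.03 (adjusted p = 0.926) and turned to −0.35 after scaling (adjusted p = 0.0537).

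Col17a1 encodes collagen XVII, which spans the membrane and joins α6β4 in the hemidesmosome. In N mice 1 to 5 it stood at 82.9, 82.0, 61.3, 44.0 and 44.3 TPM, in E mice 1 to 5 at 74.7, 71.5, 65.1, 93.8 and 66.1 TPM, and in Y mice 1 to 3 at 66.0, 43.6 and 51.8 TPM. In EY the lowest, median and highest were 31.4, 35.2 and 46.5 TPM. N mice 4 and 5, the controls without Cre or without rtTA, were the lowest N mice and overlapped the highest EY mouse, while EY lay below all E mice. Its log2 fold change in EY against N was −0.73 (SE 0.18, n = 6 and 5, adjusted p = 0.00255), and −1.11 after scaling (adjusted p = 1.28e-05). The call was lost when the 4 mice with high muscle or leukocyte sums were left out, a set chosen after the data were seen: the log2 fold change was then −0.39 (limma, adjusted p = 0.0808). These mice include N mice 1 and 2, the highest of N for Col17a1, and EY mouse 3, the lowest of EY. Which of them moved the call was not tested. The controls left in that fit were N mice 3 to 5, of which N mice 4 and 5 were the lowest of N. With any single mouse left out Col17a1 passed (limma, adjusted p up to 0.00913). With N mice 1 to 3 alone as controls Col17a1 still fell.

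The promoter table holds 5 of the 9 genes, with 8 start sites, credited to RefSeq on build GRCm38.p6. Itga6, Itgb4, Plec and Lama3 are not shown. Sequences are printed for Itgb1, Itga3 and Col17a1, the genes of this set that changed in EY and have a window, so that the bases before their starts can be read beside their levels. Each run goes 5′ to 3′ on the gene's strand and stops before the first annotated exon. They cover chr8:128685404-128685653 on the plus strand for Itgb1, chr11:95076802-95076964 on the minus strand for Itga3 (its first start) and chr19:47692095-47692292 on the minus strand for Col17a1.
Itgb1: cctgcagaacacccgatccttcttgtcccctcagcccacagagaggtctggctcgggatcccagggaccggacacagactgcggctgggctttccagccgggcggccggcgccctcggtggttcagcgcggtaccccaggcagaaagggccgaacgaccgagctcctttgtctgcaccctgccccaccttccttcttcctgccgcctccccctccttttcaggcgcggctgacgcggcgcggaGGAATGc
Itga3: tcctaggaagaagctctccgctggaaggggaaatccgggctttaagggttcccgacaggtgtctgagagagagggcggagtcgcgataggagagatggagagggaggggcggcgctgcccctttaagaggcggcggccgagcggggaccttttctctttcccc
Col17a1: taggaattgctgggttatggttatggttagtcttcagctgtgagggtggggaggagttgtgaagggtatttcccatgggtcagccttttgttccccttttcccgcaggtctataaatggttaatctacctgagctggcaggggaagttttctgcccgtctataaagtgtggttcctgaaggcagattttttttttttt
Capitals mark GGAATG, the letters bound by TEAD proteins, through which YAP acts on DNA, searched on both strands. The letters TGANTCA, bound by AP-1, were also searched on both strands. In the 250 bases before the start, GGAATG is in 2 of the 8 windows, that of Itgb1, starting 7 bases before its start site, and that of the second Lamb3 start. TGANTCA is in 0 of the 8. Of all 32851 promoters in the table, 12.6% hold GGAATG and 6.75% hold TGANTCA in the same length. A match of letters describes the sequence and does not show binding.

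Dst encodes dystonin, whose epithelial form links the hemidesmosome to keratin filaments. Its level ran from 8.58 to 11.9 TPM in N, from 5.99 to 17.9 TPM in E, from 10.02 to 11.9 TPM in Y and from 8.03 to 11.7 TPM in EY. E mouse 4 held the 17.9 TPM, and the 4 groups overlapped. The log2 fold change, EY against N, was 0.00 (adjusted p = 1.0), and −0.37 after scaling (adjusted p = 0.131).

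Plec encodes plectin, the other linker to keratin filaments. It ran from 14.99 to 38.7 TPM in N, from 16.1 to 28.6 TPM in E, from 17.9 to 20.2 TPM in Y and from 16.5 to 30.1 TPM in EY. N mice 4 and 5 were the lowest of N, at 14.99 and 17.1 TPM, and all groups overlapped. Against N, the EY mice had a log2 fold change of −0.11 (adjusted p = 0.744), and −0.49 after scaling (adjusted p = 0.0676).

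Itga3 encodes the α3 subunit, which pairs with β1. Its level was 8.85, 12.9, 7.70, 7.18 and 6.69 TPM in N mice 1 to 5, 10.1, 10.3, 9.32, 13.3 and 9.93 TPM in E mice 1 to 5, and 12.4, 10.4 and 13.01 TPM in Y mice 1 to 3. In EY the lowest, median and highest were 15.3, 20.6 and 27.0 TPM. Every EY mouse lay above every mouse of N, E and Y, and N, E and Y overlapped. Itga3 rose in EY against N with a log2 fold change of 1.26 (SE 0.18, n = 6 and 5, adjusted p = 2.07e-05), and of 0.89 after scaling (adjusted p = 2.61e-04).

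Itgb1 encodes the β1 subunit, the partner of α3 and of several other α subunits. Its level was 21.8, 25.6, 20.1, 15.7 and 18.1 TPM in N mice 1 to 5, 12.4, 20.6, 13.1, 17.6 and 10.8 TPM in E mice 1 to 5, and 26.7, 37.0 and 37.6 TPM in Y mice 1 to 3. In EY the lowest, median and highest were 45.3, 52.5 and 61.9 TPM. The Y mice lay above the N and E mice and the EY mice lay above the Y mice, while E and N overlapped. Itgb1 rose in EY against N with a log2 fold change of 1.39 (SE 0.16, n = 6 and 5, adjusted p = 2.26e-06), and of 1.01 after scaling (adjusted p = 3.01e-05). It had the largest rise of the 9 genes in this comparison, before and after scaling.

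Lama3 encodes the α3 chain of laminin-332, which carries the integrin binding site. Its level ran from 1.52 to 2.46 TPM in N, from 1.49 to 3.89 TPM in E, from 1.59 to 3.10 TPM in Y and from 1.95 to 5.18 TPM in EY. The groups overlapped, and E mouse 2 stood alone at the top of E. Its log2 fold change in EY against N was 0.70 (adjusted p = 0.0731), and 0.35 after scaling (adjusted p = 0.412).

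Lamb3 encodes the β3 chain of laminin-332. It ran from 2.44 to 4.02 TPM in N, from 2.83 to 4.17 TPM in E, from 3.27 to 4.00 TPM in Y and from 3.40 to 5.43 TPM in EY. All groups overlapped. Its log2 fold change in EY against N was 0.54 (adjusted p = 0.0105), just outside 0.01, and 0.17 after scaling (adjusted p = 0.373). It passed without N mouse 2 (the N mouse with the highest level), without EY mouse 5 and without the 4 mice with high marker sums.

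**Figure D3:**
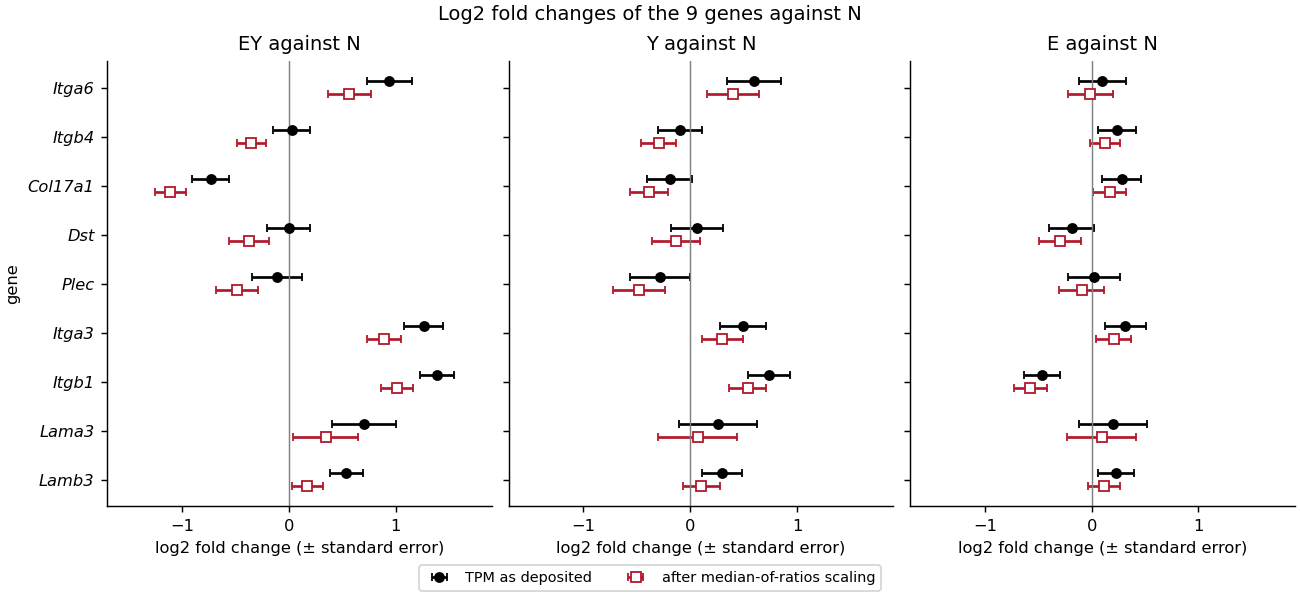
Log2 fold changes (± standard error) of the 9 genes in EY, Y and E against N, on log2(TPM + 0.1) as deposited (filled circles) and after median-of-ratios scaling (open squares). In EY against N, Itgb1, Itga3, Itga6, Lama3 and Lamb3 lie above 0 on both scales. Col17a1 and Plec lie below 0 on both scales, while Itgb4 is 0.03 on the first scale and −0.35 on the second.

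With active YAP alone (Y against N), limma called 0 of the 9 genes, and 8.51% of all genes. At an unadjusted p below 0.05 there were 3, Itga3, Itga6 and Itgb1, against 28.9% of all genes, and voom on the recovered reads called 0. Over all genes the median was 0.13, and −0.03 after scaling. Itgb1 came nearest, with a log2 fold change of 0.74 (SE 0.19, adjusted p = 0.0154), and 0.54 after scaling (adjusted p = 0.0536). It passed in the fits without N mouse 2 (adjusted p = 0.00850) or without E mouse 2, and without the 4 mice with high marker sums. The values of Itga6 and Itga3 were 0.60 and 0.50, and that of Col17a1 was −0.19 and turned to 0.11 without those 4 mice. The 3 Y mice lay above all 5 N mice for Itgb1. For Itga6, Y mouse 3 and N mouse 1 were level at 15.5 TPM. Scaling divides Y mouse 3 by 1.097 and N mouse 1 by 0.914, which puts that Y mouse lower.

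With E6-E7 alone (E against N), limma called 0 of the 9 genes, and 1.75% of all genes. At an unadjusted p below 0.05 there was 1, Itgb1, against 14.8% of all genes, and voom called 0. Its log2 fold change was −0.46 (SE 0.17, adjusted p = 0.173), and −0.58 after scaling (adjusted p = 0.0498). The other 8 log2 fold changes ran from −0.19 for Dst to 0.31 for Itga3. The median of all genes was 0.07, and −0.02 after scaling.

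Against E, which shares E6-E7 but lacks active YAP, the EY mice gave the same 4 calls: 3 genes rose, against 18.1% of all genes, and 1 fell, against 7.16%. Itgb1 rose by 1.85 on the log2 scale (adjusted p = 2.00e-07), Itga3 by 0.95 (adjusted p = 4.70e-04) and Itga6 by 0.84 (adjusted p = 0.00425). Col17a1 had a log2 fold change of −1.01 (adjusted p = 1.99e-04), with every EY mouse below every E mouse. The call of Itga6 was lost after scaling (adjusted p = 0.0347), with voom (adjusted p = 0.0172) and in the fits without E mouse 1, 3 or 5 or EY mouse 1, 2, 4 or 6, where its adjusted p reached 0.0154. The EY mice are the same in this comparison and in that with N.

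Y against E, the 2 transgenes set against each other, gave 1 rise, Itgb1, against 3.3% of all genes that rose, and 0 falls by limma, against 1.04%. Its log2 fold change was 1.20 (SE 0.19, n = 3 and 5, adjusted p = 9.12e-04). The call was lost when the 2 groups were fitted on their own (adjusted p = 0.0300) and without Y mouse 3 (adjusted p = 0.0104). At an unadjusted p below 0.05 there were 2, Itgb1 and Col17a1, against 23.3% of all genes, and voom called 0 falls.

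Whether E6-E7 added to YAP was tested directly as EY against Y. Limma called 0 of the 9 genes there, and 3.53% of all genes. At an unadjusted p below 0.05 there were 3, Itga3 (log2 fold change 0.77, adjusted p = 0.0303), Itgb1 (0.66, adjusted p = 0.0387) and Col17a1 (−0.54, adjusted p = 0.114), against 23.9% of all genes, and voom called 1 lower, Col17a1, against 2.18%. Every EY mouse lay above every Y mouse for Itga3 and Itgb1, and how many of all genes separate in this way is not given.

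The interaction asks whether the EY effect is more or less than both single effects added up. Limma called 0 of the 9 genes at 0.01, and 0.198% of all genes. At an unadjusted p below 0.05 there were 2, Itgb1 and Col17a1, against 13.5% of all genes, and voom called 0. Itgb1 had an interaction of 1.12 on the log2 scale (SE 0.25, adjusted p = 0.0468, and 0.0206 to 0.161 with a mouse left out), with its log2 fold change 0.74 in Y, −0.46 in E and 1.39 in EY. For Col17a1 the interaction was −0.82 (adjusted p = 0.183).

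A ratio of 2 genes within a mouse does not move with the scaling of that mouse. For 10 ratios of genes that pair or share a partner, the difference in mean log2 ratio was tested by a two-sided exact permutation test in 5 comparisons, with p-values adjusted over 55 tests (see processing) and a threshold of 0.05. The smallest p that the test can give is 0.00433 for EY against N or E, 0.00794 for E against N, 0.0238 for EY against Y and 0.0357 for Y against N. Past that threshold were 3 ratios in EY against N and the same 3 in EY against E, all of them with groups that did not overlap and an adjusted p of 0.0340. In Y against N, E against N and EY against Y the exact test passed 0, with 3, 2 and 3 at an unadjusted p below 0.05. By the exact test, the smallest possible p had an adjusted p of 0.103 in Y against N and 0.0873 in EY against Y. With 3 Y mice, even ratios whose groups did not overlap did not pass there, so the 0 shows no lack of a difference.

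The ratio of Col17a1 to Itga6, of collagen XVII to its integrin, was 5.34, 6.46, 5.86, 4.26 and 4.81 in N mice 1 to 5 and 3.06, 2.80 and 3.33 in Y mice 1 to 3. In E it ran from 4.69 to 7.43, and in EY the lowest and highest were 1.33 and 2.09. The 3 Y mice lay between N and EY with no overlap. The log2 ratio differed by −1.68 in EY against N, or 0.313-fold, and by −0.79 in Y against N (exact p = 0.0357, the smallest possible, adjusted p = 0.103).

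Col17a1 also fell relative to Itgb4. That ratio ran from 1.41 to 1.95 in N, from 1.55 to 1.86 in E, from 1.40 to 1.88 in Y and from 0.719 to 1.18 in EY. The EY mice lay below all others, while Y and N overlapped. The log2 difference in EY against N was −0.76, or 0.592-fold.

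The ratio of Itgb1 to Itgb4, the β subunits of the focal contact and hemidesmosome integrins, was 0.514, 0.442, 0.557, 0.530 and 0.740 in N mice 1 to 5. It ran from 0.252 to 0.528 in E, from 0.761 to 1.18 in Y and from 1.04 to 1.81 in EY. Every EY mouse and every Y mouse lay above every N mouse. The log2 ratio differed by 1.36 in EY against N, or 2.57-fold.

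Itga6 and Itgb4 encode partners of a single integrin. Their ratio ran from 0.219 to 0.376 in N, from 0.208 to 0.391 in E, from 0.429 to 0.616 in Y and from 0.344 to 0.834 in EY. EY mouse 3, the mouse with the high muscle sum, had the 0.344 and was the EY mouse that overlapped N. The log2 difference in EY against N was 0.92 (exact p = 0.0173, adjusted p = 0.0794), and 1.07 without that mouse (adjusted p = 0.0485 by the exact test).

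The ratio of Lama3 to Lamb3 overlapped between all groups, with a log2 difference of 0.17 (exact p = 0.485, adjusted p = 0.683). The ratio of Itga3 to Itgb1 differed by −0.13 in EY against N (exact p = 0.411) and by 0.78 in E against N (exact p = 0.0159, adjusted p = 0.0794).

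The passing ratios sit at the smallest p the test can give, so fewer mice in N, E or EY can take the adjusted p past 0.05, directly or through the adjustment over all tests. With N mice 1 to 3 as controls, without the 4 mice with high marker sums, without any 1 of the 10 N and E mice, or without EY mouse 1, 2, 4 or 5, the exact test passed 0 ratios in EY against N and in EY against E. With N mice 1 to 3 as controls the log2 difference in EY against N was −0.77 for Col17a1 to Itgb4 and 1.49 for Itgb1 to Itgb4 (adjusted p = 0.109 for each by the exact test).

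**Figure D4:**
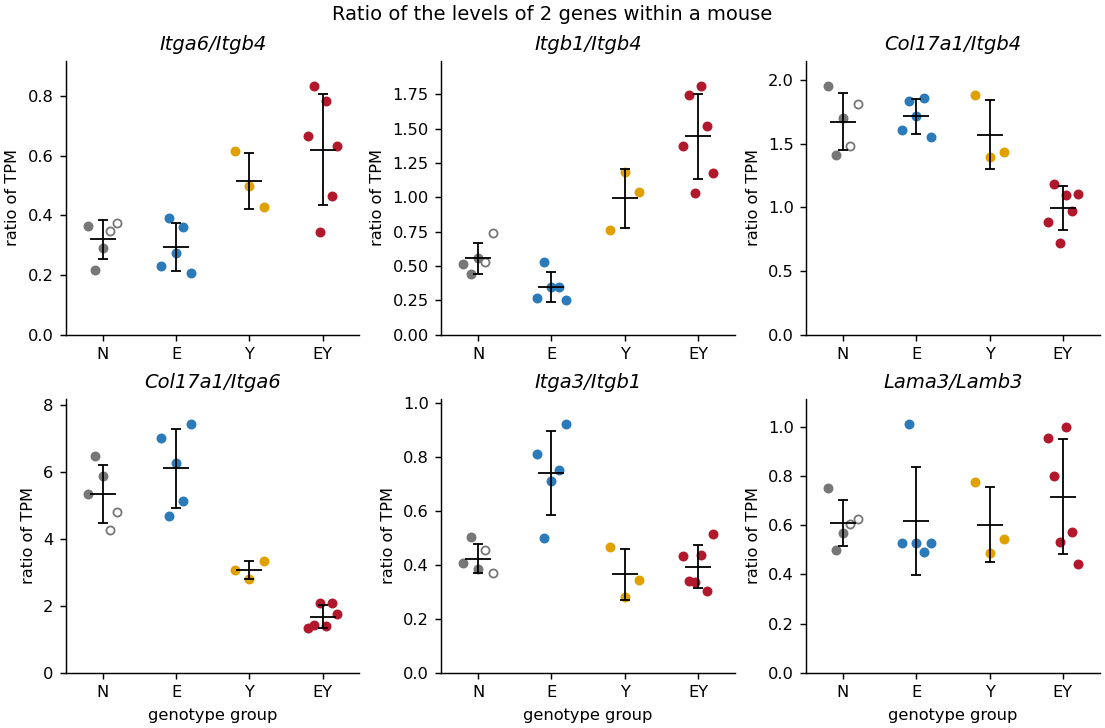
Ratio of the TPM of 2 genes within each mouse (points) by genotype group, with the group mean (long line) and SD (bars), on axes that start at 0. Open circles are N mice 4 and 5. For Col17a1/Itga6 the Y mice lie between N and EY, and for Itga6/Itgb4 EY mouse 3 lies within the range of N.

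Of 6 partners of the hemidesmosome, 4 rose in EY against N, with a median log2 fold change of 0.89. After scaling 3 rose, with a median of 0.51. Cd151, a tetraspanin that binds α3 and α6 integrins, was 85.9 to 100.5 TPM in N and 159.9 to 208.3 TPM in EY, a log2 fold change of 0.93 (adjusted p = 1.75e-05). Rac1, a small GTPase downstream of these integrins, rose by 0.85 on the log2 scale. Krt14 rose by 1.43 and Krt5 by 0.98, and the call of Krt5 was lost after scaling (0.60, adjusted p = 0.0165). The values of Cd9 and Erbin were 0.27 and 0.25 and did not pass, and they turned to −0.10 and −0.12 after scaling.

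Against N, the Y mice had a rise in 2 of the 6 partners, Cd151 (0.72, adjusted p = 0.00455) and Rac1 (0.59, adjusted p = 0.00229), and after scaling limma called 0, while voom called 1 and 5 had an unadjusted p below 0.05 before scaling. Leaving out a mouse moved that count from 0 without Y mouse 3 to 4 without EY mouse 3. 

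Of the other laminin chains, 6 of 8 passed the filter. Lamc3, a laminin γ chain, fell in EY against N (log2 fold change −1.60, limma adjusted p = 4.35e-05). Its levels were low, 0.335 to 0.534 TPM in N and 0 to 0.173 TPM in EY. Lama5 had 0.45 (adjusted p = 0.0989), Lamc1 0.67 (adjusted p = 0.0312) and Lamb2 −0.67 (adjusted p = 0.128), none of which passed. After scaling Lamb2 had −1.04 (adjusted p = 0.0142).

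Of 10 other genes of the basement membrane and its anchoring fibrils, 5 fell in EY against N, with and without scaling, and the list's median log2 fold change was −0.37. Col4a5 and Col4a6, the collagen IV chains paired head to head in the genome, fell by 1.86 and 1.49 on the log2 scale. Their levels were low. Col4a5 had 0.33 to 0.95 TPM in N and 0.036 to 0.129 TPM in EY, and Col4a6 had 0.155 to 0.366 TPM and 0 to 0.024 TPM. Col7a1, the collagen of anchoring fibrils, fell by 0.97. Frem2 and Fras1, which anchor the epithelial basement membrane, fell by 1.79 and 0.72. Frem2 had 0.553 to 1.06 TPM in N and 0.087 to 0.434 TPM in EY, and Fras1 had 0.128 to 0.275 TPM and 0.029 to 0.098 TPM. Apart from Col7a1, these falls thus rest on EY levels near the 0.1 TPM added before the log. Col4a6 and Fras1 were below 0.1 TPM in all EY mice and passed the filter only through other groups. The others did not pass: Col4a1, Nid1, Col4a2 and Hspg2 had 0.555, 0.514, 0.321 and 0.153, and Nid2 had −0.02. The count of falls was 3 without N mouse 2 or 4 or EY mouse 2 or 4, 3 with N mice 1 to 3 as the controls, and 2 without the 4 mice with high marker sums. In Y against N limma called 0 of the 10, with 2 at an unadjusted p below 0.05 and 2 by voom, and after scaling it called 2, Col4a5 and Col4a6, both lower. The list's median there was −0.91, and −1.03 after scaling.

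Of 7 other keratinocyte integrins 6 passed the filter, and in EY against N 2 rose and 2 fell. Itgav and Itgb6, the subunits of αvβ6, rose by 0.85 and 1.06 on the log2 scale, and the call of Itgb6 was lost after scaling (adjusted p = 0.0182). Itga2, the α2 subunit of a collagen receptor, had a log2 fold change of −1.05 and Itgb5 one of −0.996. The number that fell was 1 without N mouse 1 or 2 or EY mouse 2, 5 or 6.

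Of 14 adaptors of integrins and genes of focal adhesions, 9 rose in EY against N, with a median log2 fold change of 1.08. After scaling 8 rose and 1 fell, Zyx (−0.49), with a median of 0.71. Actn1, an actinin that crosslinks actin at focal adhesions, had 0.872 to 2.15 TPM in N, 5.93 to 11.5 TPM in Y and 10.1 to 20.1 TPM in EY. Its log2 fold change was 3.29 in EY against N (adjusted p = 3.76e-08) and 2.58 in Y against N (adjusted p = 4.90e-05). Lims1, Flna, Parva, Vcl, Ptk2, Actn4 and Fermt1, which link integrins to actin or signal from them, rose by 1.02 to 1.43, and Pxn rose by 0.57 before scaling but not after. Among the 14, 4 rose in Y against N, Actn1, Lims1, Actn4 and Fermt1, and after scaling 3, without Fermt1. In the fits without Y mouse 2 or 3 there were 2.

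Of 5 other plakins, the family of plectin and dystonin, Macf1, a linker of actin and microtubules, rose in EY against N by 1.01 on the log2 scale. The desmosomal or cornified plakins Dsp, Ppl and Evpl had −0.22, −0.39 and −0.56, did not pass, and after scaling fell by 0.60, 0.77 and 0.94.

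In E against N limma called 0 of the 47 genes tested of these 6 adhesion lists, with 2 at an unadjusted p below 0.05 and 0 by voom. For the 9 genes themselves the median log2 fold change in EY against N was 0.54, and 0.17 after scaling, beside 0.33 and 0.01 over all genes. In Y against N it was 0.26 and 0.07, and in E against N 0.20 and 0.09.

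**Figure D5:**
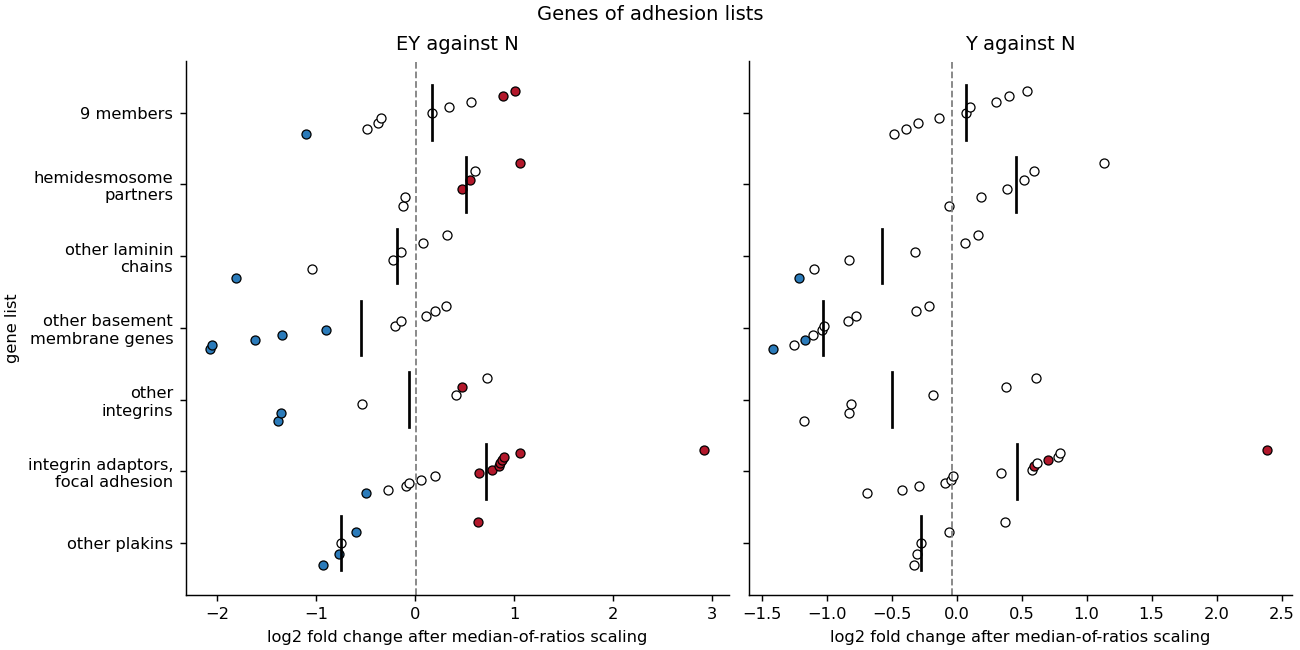
Log2 fold change after median-of-ratios scaling of each gene (points) of 7 gene lists, in EY against N and Y against N. Red points rose and blue points fell at an adjusted p below 0.01, vertical bars are list medians, and the dashed line is the median of all genes. The focal adhesion list has a median of 0.71 and the basement membrane list one of −0.55 in EY against N.

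Markers of cell state and of other cell types moved in the same comparison. Of 5 basal keratinocyte genes, Krt14 and Krt5 rose, Krt15 fell (−1.27), and Trp63 (0.02) and Sox2 (−0.07) did not pass. After scaling Trp63 had −0.35, which did not pass, Sox2 fell (−0.45) and Krt5 did not pass. The sum of the 5 ran from 9304 to 14620 TPM in N, from 8960 to 15494 TPM in E, from 17120 to 31032 TPM in Y and from 16042 to 32182 TPM in EY. Of 5 suprabasal genes 3 fell, Krt4 (−1.61), Krt13 (−1.75) and Krt76 (−5.49), while Krt6a (0.40) and Krt16 (−0.17) did not pass. The sum of the 5 suprabasal genes ran from 81208 to 148204 TPM in N and from 40539 to 59672 TPM in EY. In Y it ran from 53662 to 110205 TPM. What part the share of basal cells has in the values of the 9 genes was not tested.

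All 5 proliferation genes rose in each of EY, Y and E against N, with median log2 fold changes of 3.15, 2.29 and 1.91. Their sum ran from 57.0 to 85.3 TPM in N, 185.0 to 275.6 TPM in E, 245.7 to 321.2 TPM in Y and 495.1 to 649.2 TPM in EY. The sum was above N in both Y and E, while Itgb1 had log2 fold changes of 0.74 in Y and −0.46 in E. The part of proliferation in these values was not tested.

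Of 7 granulocyte genes 4 rose in EY against N, S100a8, S100a9, Ly6g and Cd177, and 2 in Y against N, S100a8 and S100a9. S100a8, the most abundant, can also be expressed by keratinocytes. The sum ran from 8.20 to 78.2 TPM in N, 5.80 to 85.7 TPM in E, 543.7 to 961.4 TPM in Y and 83.5 to 1035 TPM in EY. Ly6g, a defining marker, was at 0 in all N, E and Y mice, and Cd177 was below 0.1 TPM in all N and E mice, so the calls of these 2 rest on genes that passed the filter only because of the EY mice. In EY against N limma called 0 of 8 leukocyte genes, with 2 at an unadjusted p below 0.05 and 0 by voom. It called 0 of the 5 endothelial and 0 of the 6 Schwann cell and nerve genes that passed the filter, with 0 at an unadjusted p below 0.05 and 0 by voom. Of 15 skeletal muscle genes 1 rose, Tnni2, which did not pass after scaling. The median log2 fold change of the muscle list was 1.54, and 1.17 after scaling. Its values ran from 0.52 for Myod1 to 2.09 for Des, and Myod1 was at 0 in all N and Y mice. Of 7 fibroblast genes 1 fell, Dcn (−2.36), while the other 6 had 0.32 to 1.08 and did not pass, and the list's median was 0.45. The part of these cells in the values of the 9 genes was not tested, apart from the fits without the 4 mice above, in which Itgb1, Itga3 and Itga6 rose, Lamb3 rose as well and Col17a1 did not pass.

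The 9 genes differed in which other genes they resembled over the 19 mice. Correlations (Pearson r of log2 levels, 15604 genes with a mean of at least 1 TPM) are a description over points that share the 4 groups, so the r of deviations from the group means is given after each. Itgb1 was most like Serpinb6a (0.984, deviations 0.965) and Slc16a1 (0.974, 0.828). Itga6 was most like Cdk2ap1 (0.951, 0.909) and Aco1 (0.949, 0.907), and Itga3 like Ythdf1 (0.954, 0.792) and Gm4204 (0.943, 0.760). Itgb4 was most like Gm47210 (0.900, 0.932) and Usp19 (0.872, 0.885), and Plec like Mllt6 (0.899, 0.892) and Kmt2d (0.853, 0.898).

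Lamb3 was most like Plppr3 (0.943, 0.914) and Cops7b (0.905, 0.814), and Lama3 like Tm9sf4 (0.882, 0.837) and Champ1 (0.871, 0.820). Col17a1 was most like Pard3 (0.894, 0.698) and Wbp2 (0.890, 0.766). Dst was most like Gm26788 (0.936, 0.936) and A930002H24Rik (0.759, 0.807). Gm26788 lies inside Dst on the other strand, and whether strand was used in counting is not given in the sources used here, so their reads may not be told apart. Within the set, Itga6 had an r of 0.870 with Itga3 (deviations 0.703), 0.814 with Itgb1 (0.540) and 0.033 with its partner Itgb4 (0.281). With Col17a1 the r of Itga6 was −0.361 over the 19 mice and 0.708 for the deviations from the group means.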

How the data were processed

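The submitters' processing notes list build GRCm39 and the tools STAR 2.7.9, SAMtools 1.7, HTSeq 0.13.5 and DESeq2 1.34.0. The deposited values are TPM, and how TPM was made from counts is not given in the sources used here. Whole reads were recovered for 24680 of 24680 genes above 0 (tolerance 0.001). Groups came from the labels. The values were analysed as log2(TPM + 0.1), so fold changes of low genes are understated. Genes that reached 0.1 TPM in 3 or more mice were fitted with limma 3.58.1 (R 4.3.3, lmFit and eBayes with trend, 1 mean per group, 19 mice), with Benjamini-Hochberg adjustment over 22745 genes. Differences in log2 ratios had two-sided exact permutation tests (the smaller tail multiplied by 2), run in Python 3.11.15 with numpy 2.4.6 and pandas 2.3.3, and plots used matplotlib 3.10.9. Of the genes and ratios fixed beforehand, 1 gene and the ratio that holds it are not reported here, and the 5 tests of that ratio stay among the 55 over which p was adjusted. An earlier p from the absolute difference was replaced after its results were seen and is kept as an alternative. Code was tested on simulated data. Named genes are the 9 members, genes of 16 fixed lists, and for each member the 2 genes with the highest r. The members and lists were chosen with earlier results of these data known. Alternatives were other pseudocounts, no filter, median-of-ratios scaling, voom on the recovered reads, N mice 1 to 3 as controls, only the 2 groups compared, a replicate block, and each mouse left out. An alternative without 4 mice with high marker sums was chosen after seeing the data, and it keeps only N mice 3 to 5 as controls.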

Additional observations from a re-analysis of the deposited data

Results flagged for a closer look

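Of 84 groups of mice compared by gene, marker sum or ratio, 9 held a mouse far from the others, judged by its gap to the nearest mouse as a share of the group's range. Y, with 3 mice, was not judged. Chance marks about 5% of groups in this way. E mouse 2 stood apart in Lama3, at 3.89 TPM against 1.49 to 2.05 TPM in the other E mice, and in the ratio of Lama3 to Lamb3, 1.01 against 0.491 to 0.529. E mouse 4 stood apart in Itga3, at 13.3 TPM against 9.32 to 10.3 TPM, and in the ratio of Dst to Plec, 0.625 against 0.301 to 0.373.

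The summed skeletal muscle genes set apart N mouse 2 (342.5 TPM), E mouse 5 (195.3 TPM) and EY mouse 3 (1694 TPM). N mouse 1 was set apart by its leukocyte sum (699.1 TPM) and by its granulocyte sum, 78.2 TPM against 8.20 to 17.6 TPM in the other N mice. For Itgb1 the effect of both transgenes departed from the sum of the single effects by 1.12 on the log2 scale (limma, adjusted p = 0.0468), which passes 0.05 but not 0.01. The adjusted p was 0.143 without the 4 mice with high muscle or leukocyte sums, and ran from 0.0206 to 0.161 with each mouse left out in turn, so the pass at 0.05 depends on single mice.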

How the results depend on the processing

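Of single values under the alternatives, 2339 kept their sign and their side of the threshold, 121 no longer passed, 15 newly passed and 74 changed sign, and the cause of the changes was not tested unless fewer mice are named. At 8269674 reads or more per mouse, the fewest reads behind a value of the 9 genes were 389. N holds 3 genotypes in 5 mice, Y has 3 mice, and TPM shares 1 total, so scaling decides the sign of small changes.

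With median-of-ratios scaling the log2 fold change turned to −0.015 for Itga6, −0.092 for Plec and −0.10 for Cd151 in E against N, to −0.350 for Itgb4 in EY against N, to −0.05 for Itgb4 and −0.004 for Plec in EY against Y, to −0.13 for Dst in Y against N and to −0.075 for Dst in EY against E. Counts became 0 partners higher, 1 other laminin chain lower and 2 basement membrane genes lower in Y against N, and in EY against N 1 other integrin higher, 1 focal adhesion gene lower and 3 other plakins lower.

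With voom the same 8 values were −0.016, −0.093, −0.101, −0.355, −0.055, −0.003, −0.135 and −0.076. Counts of the 9 genes became 1 lower in EY against Y (2.18% of all genes), 2 lower in EY against E (12.6%), and, without Itga6, 2 higher in EY against N (13.9%) and in EY against E (11.8%). In Y against N they became 1 partner higher, 2 basement membrane genes lower and 1 other integrin lower, and in EY against N 2 other laminin chains, 1 focal adhesion gene and 3 other plakins lower.

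With N mice 1 to 3 as controls the log2 fold change in E against N was −0.055 for Itga6, −0.052 for Itgb4, −0.34 for Plec, −0.022 for Col17a1 and −0.022 for Cd151, and the log2 ratio of Dst to Plec differed by 0.045, while in EY against N Itgb4 had −0.264 and the log2 ratio of Dst to Itgb4 differed by 0.155, and in Y against N Dst had −0.046. Counts became 0 partners and 2 focal adhesion genes higher in Y against N, 3 basement membrane genes lower, 1 other integrin higher and 1 lower in EY against N. Ratios past 0.05 became 0 in EY against N, where fewer mice raise the smallest p, and 0 in EY against E, where the mice are the same and the adjustment over all tests changed.

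Without the 4 mice with high marker sums, a choice made after seeing the data, the log2 fold change in Y against N was 0.198 for Itgb4, 0.013 for Plec and 0.106 for Col17a1. It was 0.037 for Dst in E against N, 0.012 for Dst in EY against Y and 0.136 for Plec in EY against N. The log2 ratio differed by 0.019 for Lama3 to Lamb3 in E against N, −0.065 for Dst to Itgb4 in Y against N and −0.057 for Plec to Itgb4 in EY against E. Counts of the 9 genes became 0 lower in EY against N (6.02% of all genes) and 1 higher in Y against N (5.14%), and those of lists 1 partner and 1 other plakin higher in Y against N, 2 basement membrane genes and 1 other integrin lower in EY against N. Ratios past 0.05 became 0 in EY against N and 0 in EY against E, again with fewer mice.

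At an adjusted p below 0.05, 4 of the 9 genes were higher in EY against N, 1 in Y against N, 2 in EY against Y and 1 in the interaction, against 30.6%, 13.02%, 6.18% and 0.242% of all genes. With only the 2 groups compared, 0 were higher in Y against E (0.638% of all genes), 0 partners and 1 focal adhesion gene were higher in Y against N, and 3 basement membrane genes and 1 other integrin were lower in EY against N. With a pseudocount of 1 TPM, 1 other laminin chain was lower in Y against N, 3 basement membrane genes were lower in EY against N, and ratios past 0.05 were 1 in E against N and 4 in EY against E. With no filter, 2 basement membrane genes were lower in Y against N. With p from the absolute difference, also chosen after seeing the data, 4 ratios passed in EY against E.

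Whether mouse numbers pair mice across groups is not settled by these values. Mice of the same number in different groups had correlations of −0.0426 to 0.0764, with a median of 0.0119. Mice of other numbers had −0.195 to 0.0769, with a median of −0.00751. Of 19 mice, 6 correlated best with a mouse of their own number. With a replicate block Itgb4 in EY against N had −0.01, and 1 other integrin and 1 other plakin were lower in EY against N.

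With each mouse left out in turn, values ran as follows. In E against N the log2 fold change ran from −0.047 to 0.212 for Itga6, −0.02 to 0.311 for Lama3, −0.138 to 0.203 for Plec and −0.123 to 0.098 for Cd151. In EY against N it ran from −0.118 to 0.193 for Itgb4 and −0.268 to 0.072 for Plec, in Y against N from −0.241 to 0.07 for Itgb4 and −0.007 to 0.125 for Dst, and in EY against Y from −0.125 to 0.012 for Dst. Of the 9 genes 0 to 1 were higher in Y against N (3.28% to 7.46% of all genes) and 0 to 1 in Y against E (1.117% to 3.28%). In Y against N 0 to 4 partners, 2 to 5 focal adhesion genes and 0 to 1 other plakins were higher and 0 to 1 basement membrane genes lower. In EY against N 3 to 5 basement membrane genes, 1 to 2 other integrins and 0 to 1 other plakins were lower. Ratios past 0.05 ran from 0 to 4 in EY against N and 0 to 4 in EY against E.

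Differences in log2 ratio with a mouse left out ran in EY against Y from −0.055 to 0.306 for Itga3 to Itgb1 and −0.041 to 0.15 for Plec to Itgb4. In Y against N they ran from −0.245 to 0.023 for Itga3 to Itga6 and −0.226 to 0.094 for Lama3 to Lamb3. In E against N they ran from −0.213 to 0.046 for Lama3 to Lamb3 and −0.014 to 0.102 for Col17a1 to Itgb4. In EY against N they ran from −0.026 to 0.235 for Dst to Plec and −0.147 to 0.106 for Dst to Itgb4, and in EY against E from −0.054 to 0.16 for Plec to Itgb4.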
